A study of Homo sapiens with 8 samples.

Results

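The transcripts of 7 S100 genes (S100A2, S100A4, S100A6, S100A10, S100A11, S100A13 and S100A16) and 3 annexin genes (ANXA1, ANXA2 and ANXA5) were followed across 3 groups of MDA231 cells (MDA-MB-231), a human breast cancer line of mesenchymal character. The 10 genes were chosen by name as a list of S100 and annexin genes held to be abundant in such cells, and were matched by symbol to the Ensembl identifiers of the 58051 genes in the count files. All 10 were found, and 9 of them were among the 7550 genes that passed the filter on low counts (a mean normalized count above 5). ANXA1 did not pass.

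The study removed SDHB, the iron-sulfur subunit of mitochondrial complex II, and then lowered SDHA, its flavoprotein subunit, to ask what the SDHA that is left without SDHB does in cells. Expression was measured by 3′ end sequencing (QuantSeq) in 8 samples that the labels call biological replicates. The 2 parental samples were unmodified MDA231 cells. The 3 SDHBKO samples were MDA231 cells in which exon 1 of SDHB had been targeted with a TALEN nuclease, followed by hygromycin selection. The 3 SDHBKOSDHAlow samples were SDHBKO cells that in addition carried a stable SDHA shRNA plasmid and had been selected with puromycin, so these 6 samples share the loss of SDHB, and the labels give full medium and no further treatment at harvest for all 3 groups. The sources used here do not give which of the shRNAs was sequenced, whether the SDHBKO samples held the empty vector, or whether a subline was a single clone. A difference between the sublines other than the named modification therefore cannot be told apart from it, and p-values measure the spread between samples of one subline.

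S100 proteins are small calcium sensors of the EF-hand type. Most form dimers that open on binding calcium and then grip partner proteins, such as nonmuscle myosin for S100A4, and several are released from cells and act on receptors outside. Annexins bind acidic phospholipids in a calcium-dependent way and take part in membrane repair and vesicle traffic. The families meet in the complex of annexin A2 with S100A10, which sits at the inner and outer face of the plasma membrane, holds AHNAK and binds plasminogen, while annexin A1 is a partner of S100A11.

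The 7 S100 members lie in the S100 gene cluster of chromosome 1 (GRCh38, GENCODE 44), all on the minus strand. S100A10 lies at chr1:151982915-151993859 and S100A11 at chr1:152032506-152047907. Then follow S100A6 at chr1:153534599-153536244, S100A4 at chr1:153543613-153550136, S100A2 at chr1:153561108-153567890, S100A16 at chr1:153606886-153613145 and S100A13 at chr1:153618787-153631360. ANXA1 lies at chr9:73151865-73170393 on the plus strand, ANXA2 at chr15:60347134-60402883 on the minus strand and ANXA5 at chr4:121667946-121696995 on the minus strand. In the stretch of chromosome 1 from S100A10 to the end of S100A1 at position 153632039 the files list 88 genes, 19 of them named S100. The genes tested in this stretch were 8 S100 genes, the 7 members and S100A3, and 0 others.

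Upstream sequence is shown for 3 members, S100A13 because it alone passed the test, and S100A11 and S100A16 because they passed it under at least 1 processing alternative. S100A6 did so too, but the 250 bases before its start lie wholly within annotated exons and are not printed. The same holds for a further start of S100A13, downstream of those shown, with its window at chr1:153627240-153627489. The RefSeq promoter table (GRCh38.p14) held all 10 members, with 14 start sites among them. The stretches below are those of the 250 bases before a start that overlap no annotated exon, read 5′ to 3′ on the minus strand. Capitals mark a match to 1 of 4 motifs that were searched on both strands, TGANTCA (AP-1), ACGTG (the core of the hypoxia response element), GGAATG (TEAD) and TGACNNNGC (the core of the antioxidant response element).
S100A13, upstream start, chr1:153634398-153634611: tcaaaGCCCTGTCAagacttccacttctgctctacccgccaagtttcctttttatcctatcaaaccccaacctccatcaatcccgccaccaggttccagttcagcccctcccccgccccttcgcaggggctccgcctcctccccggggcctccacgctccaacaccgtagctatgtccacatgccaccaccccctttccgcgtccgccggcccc
S100A13, downstream start, chr1:153627599-153627755: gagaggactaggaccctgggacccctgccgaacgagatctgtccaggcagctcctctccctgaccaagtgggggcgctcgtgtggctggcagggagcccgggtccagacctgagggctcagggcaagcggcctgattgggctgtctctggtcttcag
S100A11, chr1:152037005-152037254: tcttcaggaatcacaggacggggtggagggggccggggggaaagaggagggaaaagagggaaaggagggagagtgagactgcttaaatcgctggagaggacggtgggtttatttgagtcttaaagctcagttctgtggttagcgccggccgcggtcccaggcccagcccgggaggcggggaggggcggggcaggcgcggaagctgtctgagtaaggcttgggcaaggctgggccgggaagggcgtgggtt
S100A16, upstream start, chr1:153613146-153613387: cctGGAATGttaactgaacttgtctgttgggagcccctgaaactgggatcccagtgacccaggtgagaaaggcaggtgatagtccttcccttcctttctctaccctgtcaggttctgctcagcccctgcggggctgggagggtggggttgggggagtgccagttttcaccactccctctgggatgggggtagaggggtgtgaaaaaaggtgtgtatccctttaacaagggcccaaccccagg
S100A16, downstream start, chr1:153609356-153609605: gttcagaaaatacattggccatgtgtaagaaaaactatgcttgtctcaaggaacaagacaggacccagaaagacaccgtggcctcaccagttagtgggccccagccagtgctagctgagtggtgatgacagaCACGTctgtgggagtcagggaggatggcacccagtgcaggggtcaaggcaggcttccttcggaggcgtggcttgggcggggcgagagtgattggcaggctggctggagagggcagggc

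The upstream window of S100A13 held a match to TGACNNNGC that began 245 bases before the start. The upstream window of S100A16 held GGAATG at 247 bases and its downstream window held ACGTG at 118 bases before the start, and these matches do not overlap another motif. The S100A11 window held none of the 4. Outside these genes, S100A2 held TGANTCA at 52 bases and ANXA2 held it at 127 bases before a start. Of 35116 windows of this length in the table, 6.57% held TGANTCA, 18.5% ACGTG, 11.9% GGAATG and 10.9% TGACNNNGC. Reads from the 3′ end do not say which start was used.

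Between 773042 and 1427141 reads per sample were counted on genes, so that 3 counts corresponded to between 2.10 and 3.88 CPM (counts scaled to a common library size, after TMM). Values of different genes are not divided by transcript length and are compared only across groups. SDHA stood at 72.9 and 90.6 CPM in the parental samples, at 146, 133 and 150 CPM in SDHBKO and at 8.35, 12.6 and 17.6 CPM in SDHBKOSDHAlow, and its log2 fold change in SDHBKOSDHAlow against SDHBKO was -3.46 (edgeR adjusted p = 1.16e-07). SDHB had 4 and 3 counts in parental, 0, 3 and 1 in SDHBKO and 0, 2 and 1 in SDHBKOSDHAlow, too few to check the labels, and a tag from the 3′ end would not read a lesion in exon 1. Of the markers of the label, the 6 mesenchymal genes passed the count filter, and AXL and LGALS1 had the highest values, with group means of 2181 to 2742 and of 1856 to 2466 CPM. The luminal genes ESR1 and PGR had 0 counts in every sample, EPCAM had 0 to 1, CDH1 0 to 2 and ERBB2 15 to 25. The keratins KRT18, with 788 to 1682 counts, and KRT8, with 122 to 206 counts, were present. Of the 9 epithelial and mesenchymal markers tested, edgeR called 0 in each of the 3 comparisons, as did DESeq2, and 1, 3 and 0 had an unadjusted p under 0.05.

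Together the 10 members took between 0.361% and 0.410% of the reads on genes in each sample, the S100 members between 0.249% and 0.310% and the annexins between 0.0891% and 0.120%. Not every member had many reads, although the list holds them to be abundant. How well the 3′ end of each gene was captured was not tested, so few reads are not taken as few transcripts. S100A6, S100A10, S100A11, S100A13, S100A16 and ANXA2 had at least 80 counts in each sample and ANXA5 had 27 to 50. S100A2 had 1 to 12 counts, S100A4, known for its part in metastasis, had 3 to 13, and ANXA1 had 0 to 5. The level of each member in each sample is shown in the plot of CPM by group.

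**Figure D1:**
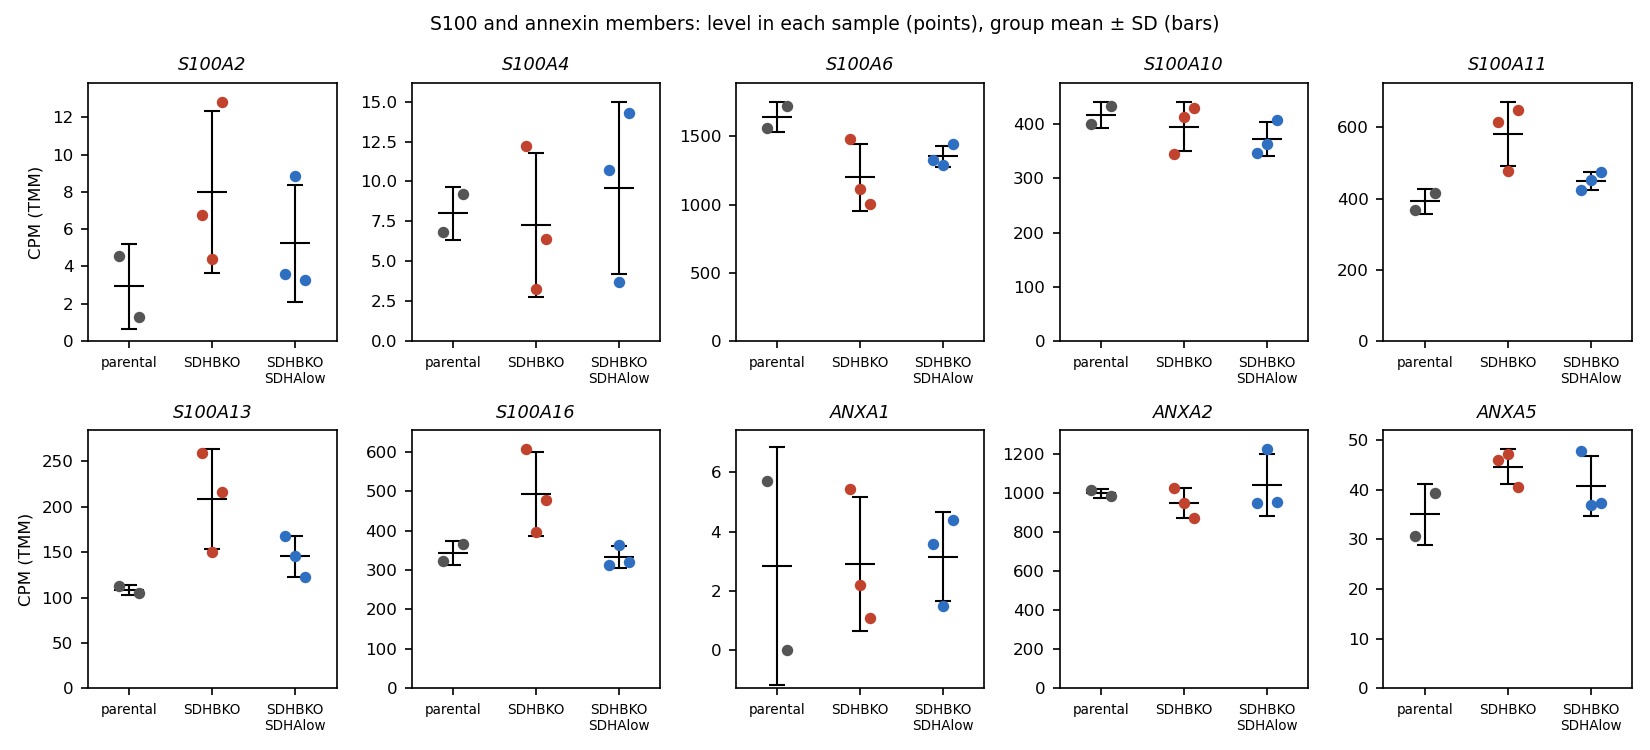
Level of the 10 members (y axis, CPM after TMM scaling, 1 scale per gene) in each parental, SDHBKO and SDHBKOSDHAlow sample, with bars for the group mean ± SD (n = 2, 3 and 3). The SDHBKO samples of S100A13 lie between 150 and 259 CPM, above the parental samples at 105 and 113 CPM, and the S100A2, S100A4 and ANXA1 panels rest on 0 to 13 counts a sample.

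The first comparison asked how loss of SDHB altered these transcripts. S100A13 rose 1.90-fold in SDHBKO cells against parental cells (95% interval 1.31 to 2.77), and it was the only one of the 9 tested members to pass the threshold of an adjusted p below 0.1. S100A11 and S100A16 were higher and S100A6 was lower in every SDHBKO sample than in both parental samples, but none of the 3 passed. The annexins ANXA2 and ANXA5 and the S100 members S100A2, S100A4 and S100A10 did not pass either. Across all genes 5.54% were called in this comparison, 3.14% as higher and 2.4% as lower. The 1 call among 9 members is near this background and is not a result about the list as a whole.

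S100A13, which has no classical signal peptide and is known for carrying FGF1 and interleukin-1α out of cells, measured 113 and 105 CPM in the parental samples (99 and 80 counts), 259, 150 and 217 CPM in SDHBKO (191, 137 and 203 counts) and 168, 146 and 123 CPM in SDHBKOSDHAlow (141, 197 and 112 counts). All SDHBKO samples were above both parental samples, and SDHBKO replicate 2 was the lowest of its group and lay within the range of SDHBKOSDHAlow. The group means were 109 ± 5.47 CPM (SD, n = 2), 209 ± 54.7 CPM (n = 3) and 146 ± 22.5 CPM (n = 3). The log2 fold change in SDHBKO against parental was 0.93 ± 0.26 (SE; edgeR quasi-likelihood test, adjusted p = 0.0596). In SDHBKOSDHAlow against SDHBKO it was -0.52 ± 0.22 (edgeR adjusted p = 0.351), and against parental 0.41 ± 0.26 (edgeR adjusted p = 0.541), so neither passed. The share of reads that mapped to several places was 14.5% to 16.1% in the SDHBKO libraries, 10.2% to 10.9% in the parental and 9.72% to 12.3% in the SDHBKOSDHAlow libraries, and its part in these values was not tested.

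The rise of S100A13 kept its direction in all 18 processing alternatives, with log2 fold changes from 0.76 to 1.12, and it passed the threshold in 10 of them. These alternatives are not independent. The threshold of 0.05 uses the same fit, and leaving out an SDHBKOSDHAlow sample removes none of the samples compared. Among the fits that leave out an SDHBKO sample, only the fit without replicate 2 kept the call. The call was lost without SDHBKO replicate 1 (0.76, edgeR adjusted p = 0.219) and without SDHBKO replicate 3 (0.92, edgeR adjusted p = 0.152). It was also lost at a threshold of 0.05. Without parental replicate 1 the log2 fold change was 0.98 and without parental replicate 2 it was 0.88. Each of these fits leaves a single parental sample, so whether the call passed there says nothing about S100A13. S100A13 overlaps S100A1 on the opposite strand, and S100A1 had 0 counts in every sample.

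**Figure D2:**
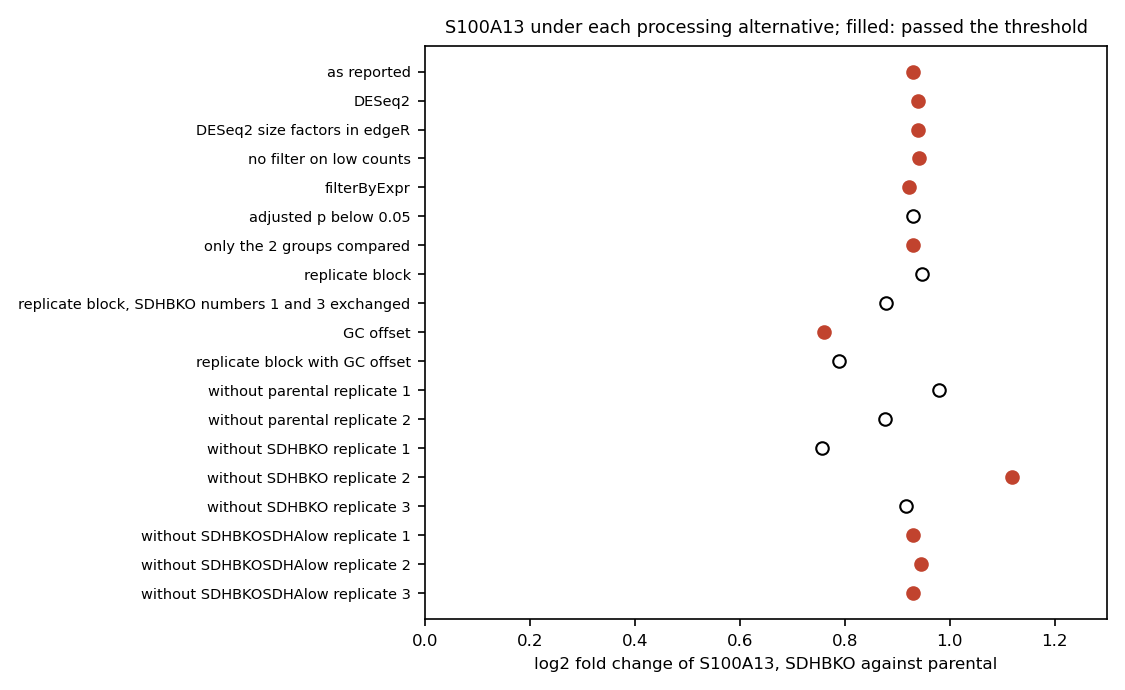
Log2 fold change of S100A13 in SDHBKO against parental cells (x axis) as reported and under each of 18 processing alternatives (y axis), with filled points where the threshold was passed. All points lie between 0.76 and 1.12. The open points include the removal of SDHBKO replicates 1 and 3 and of either parental sample, which leaves a single parental sample.

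S100A11, a partner of annexin A1 in membrane repair and epidermal differentiation, measured 368 and 416 CPM in parental, 614, 478 and 649 CPM in SDHBKO and 425, 451 and 475 CPM in SDHBKOSDHAlow. The 3 groups did not overlap, with SDHBKO highest and parental lowest, although SDHBKO replicate 2 was only just above SDHBKOSDHAlow replicate 3. The log2 fold change in SDHBKO against parental was 0.56 ± 0.21 (edgeR adjusted p = 0.151). DESeq2 called it, at 0.57 with an adjusted p of 0.0700, and so did edgeR fitted to these groups alone and edgeR without SDHBKO replicate 2 (0.69, adjusted p = 0.0966) or without SDHBKOSDHAlow replicate 2 (0.58, adjusted p = 0.0544). The fit to these groups alone called 777 of 7434 genes in all, and that without SDHBKOSDHAlow replicate 2 called 846 of 7448. With all samples 418 of 7550 were called. In SDHBKOSDHAlow the log2 fold change was -0.37 ± 0.18 against SDHBKO (edgeR adjusted p = 0.434) and 0.20 ± 0.21 against parental (edgeR adjusted p = 0.751). The 8 annotated S100A11 pseudogenes had 0 counts in every sample.

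S100A16, a broadly expressed member of the family, measured 322 and 365 CPM in parental, 606, 396 and 476 CPM in SDHBKO and 312, 364 and 320 CPM in SDHBKOSDHAlow. The SDHBKO samples were the 3 highest, and the samples of the other groups were interleaved. The log2 fold change was 0.52 ± 0.22 in SDHBKO against parental (edgeR adjusted p = 0.218), -0.57 ± 0.19 in SDHBKOSDHAlow against SDHBKO (edgeR adjusted p = 0.218) and -0.050 ± 0.22 in SDHBKOSDHAlow against parental (edgeR adjusted p = 0.949). Without SDHBKOSDHAlow replicate 2, the deepest library, the first and the second of these passed, at 0.53 (edgeR adjusted p = 0.0954) and -0.66 (edgeR adjusted p = 0.0621). Calls also rose over all genes in that fit, to 846 and 375 of 7448, from 418 and 114 of 7550 with all samples.

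S100A6, known as calcyclin and for its binding to the ubiquitin ligase adaptor CACYBP, had the most counts of the S100 members. It measured 1563 and 1718 CPM in parental, 1477, 1116 and 1001 CPM in SDHBKO and 1329, 1287 and 1440 CPM in SDHBKOSDHAlow. Both parental samples were above all 6 samples without SDHB, and SDHBKO replicate 1 was above all SDHBKOSDHAlow samples. The log2 fold change was -0.46 ± 0.20 in SDHBKO against parental (edgeR adjusted p = 0.239), 0.18 ± 0.18 in SDHBKOSDHAlow against SDHBKO (edgeR adjusted p = 0.747) and -0.28 ± 0.20 in SDHBKOSDHAlow against parental (edgeR adjusted p = 0.610). With an offset for the GC content of each gene's last 300 bases, the first of these became -0.59 and passed (edgeR adjusted p = 0.0762).

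The partners S100A10 and ANXA2 showed no called difference. S100A10, which unlike most S100 proteins no longer binds calcium, measured 400 and 433 CPM in parental, 344, 412 and 429 CPM in SDHBKO and 346, 364 and 407 CPM in SDHBKOSDHAlow. ANXA2 measured 1016 and 984 CPM in parental, 1028, 949 and 872 CPM in SDHBKO and 950, 1225 and 954 CPM in SDHBKOSDHAlow. The groups overlapped for both genes, and SDHBKOSDHAlow replicate 2 alone held ANXA2 above the rest. In SDHBKO against parental the log2 fold change of S100A10 was -0.077 (95% interval -0.50 to 0.35, edgeR adjusted p = 0.897) and that of ANXA2 was -0.078 (-0.49 to 0.33, edgeR adjusted p = 0.893). In SDHBKOSDHAlow against SDHBKO the values were -0.088 (-0.47 to 0.29) for S100A10 and 0.14 (-0.23 to 0.50) for ANXA2, and against parental -0.16 (-0.59 to 0.26) and 0.058 (-0.35 to 0.47). The ANXA2 pseudogenes ANXA2P1, ANXA2P2 and ANXA2P3 had 0 to 1 counts.

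ANXA5, the annexin used as a probe of exposed phosphatidylserine, measured 30.7 and 39.4 CPM in parental, 46.1, 47.2 and 40.6 CPM in SDHBKO and 47.7, 37.0 and 37.4 CPM in SDHBKOSDHAlow. The SDHBKO samples were above both parental samples, the lowest of them only just, and the SDHBKOSDHAlow samples overlapped both groups. The log2 fold change in SDHBKO against parental was 0.35 ± 0.32 (edgeR adjusted p = 0.624). It was -0.14 in SDHBKOSDHAlow against SDHBKO (95% interval -0.71 to 0.43) and 0.21 in SDHBKOSDHAlow against parental (-0.46 to 0.87).

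The low members were near the limit of the depth. S100A2 had 4 and 1 counts in parental, 5, 4 and 12 in SDHBKO and 3, 12 and 3 in SDHBKOSDHAlow. S100A4 had 6 and 7, then 9, 3 and 6, then 9, 5 and 13 counts in the same order of groups, and shares its strand and part of its interval with S100A3, so reads of these genes may not be fully separable. ANXA1, the partner of formyl peptide receptors in resolving inflammation, had 5 and 0, then 4, 2 and 1, then 3, 2 and 4 counts. The samples of all groups overlapped for each of the 3. In SDHBKO against parental the interval of the log2 fold change ran from -0.35 to 3.10 for S100A2 and from -1.66 to 1.32 for S100A4, so a difference of several fold was not detectable at this depth. ANXA1 was not tested.

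**Figure D3:**
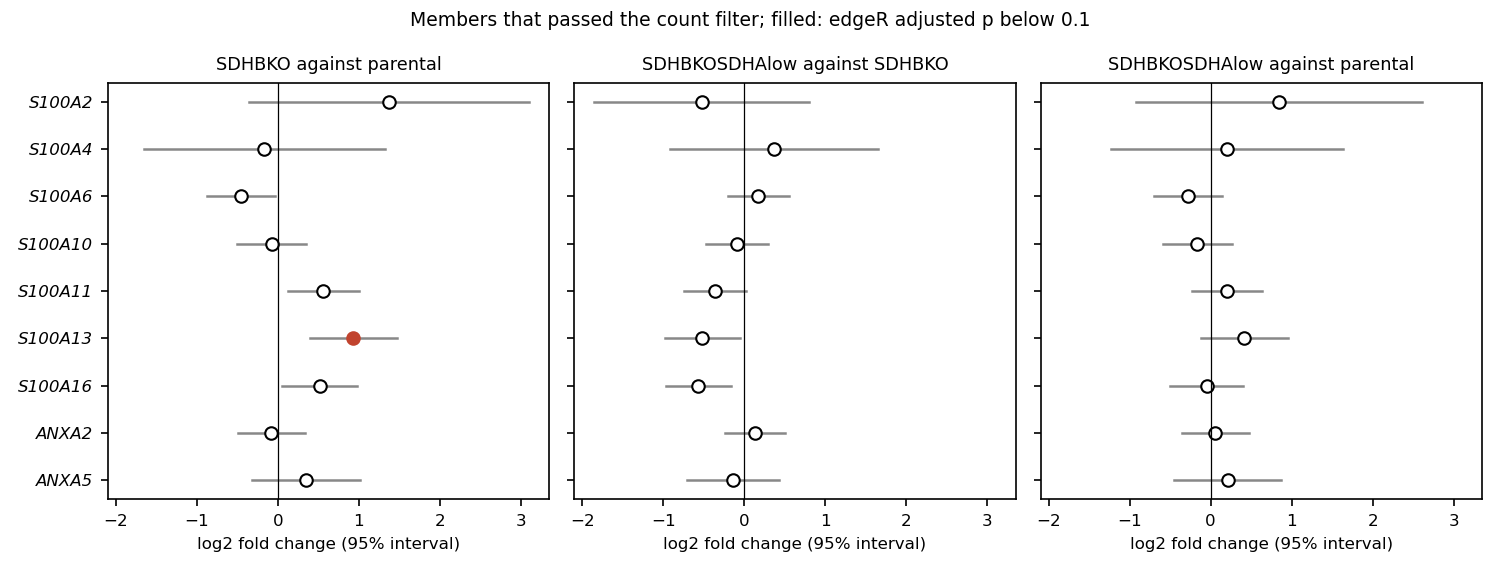
Log2 fold change of the 9 tested members (points) with 95% intervals (lines) in the 3 comparisons, filled where the edgeR adjusted p was below 0.1. S100A13 in SDHBKO against parental is the filled point, and the intervals of S100A2 and S100A4 are the widest.

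The members were also counted as a list. They were chosen with earlier results of these data known, and the 7550 tested genes reach down to a mean count of 5. The shares of all genes set beside them are therefore a description and not a test of the list. In SDHBKO against parental, 5 of 9 log2 fold changes were above 0, with a median of 0.35 beside -0.00072 over all 7550 genes, and 4 of 9 had an unadjusted edgeR p under 0.05, beside 17.5% of all genes. The groups did not overlap for 5 of 9, beside 37.7% of all genes: S100A11, S100A13, S100A16 and ANXA5 were higher and S100A6 lower. DESeq2 called 2 of the 6 members to which it gave an adjusted p, S100A13 and S100A11, beside 12.4% of its genes.

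The second comparison asked what the lowering of SDHA added in cells without SDHB. Over all genes 1.51% were called, 0.318% as higher and 1.19% as lower. Of the 9 members edgeR called 0 and DESeq2 called 0 of 7, beside 2.85% of its genes, and 2 had an unadjusted edgeR p under 0.05 (S100A13 and S100A16), beside 12.1% of all genes. The median log2 fold change of the members was -0.14, beside 0.013 over all genes, with 3 of 9 above 0. S100A11 and S100A16 were lower in every SDHBKOSDHAlow sample than in every SDHBKO sample, beside 8.64% of all genes in that direction and 8.7% in the other, where there was 0 of the members.

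The third comparison set SDHBKOSDHAlow against parental cells, and it shares its samples with the others. Over all genes 0.914% were called, 0.225% as higher and 0.689% as lower, and of the 9 members edgeR called 0. DESeq2 called 0 of 7, beside 1.99% of its genes, and 0 of 9 had an unadjusted edgeR p under 0.05, beside 12.3% of all genes. The median of the members was 0.20, beside 0.017 over all genes, with 6 of 9 above 0. S100A11 and S100A13 were higher and S100A6 lower in every SDHBKOSDHAlow sample than in both parental samples, beside 30.6% of all genes whose groups did not overlap.

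Across the 8 samples the values of S100A11, S100A13 and S100A16 varied together, with Pearson's r of 0.85 for S100A11 and S100A13, 0.84 for S100A11 and S100A16 and 0.81 for S100A13 and S100A16. S100A6 ran against S100A11 (r = -0.58) and S100A13 (r = -0.52). These values describe 8 libraries of 3 groups, which also share depth and multimapping share. Among 1767 other genes with a mean of at least 100 CPM, the levels most like that of S100A13 were those of the ribosomal protein genes RPS10 and RPL27A (r = 0.97 for each). For S100A11 they were those of RPS15P4 and HIF1AN (0.95 and 0.94), and for S100A16 those of MPDU1 and CD63 (0.98 and 0.96). S100A6 was most like RPL10A and RPLP2 (0.98 and 0.95), S100A10 like CLSTN1 and CAPNS1 (0.93 and 0.90) and ANXA2 like H2AZ1 and MRPL46 (0.94 and 0.90). For the members with few counts, each set beside 1768 genes, they were LRP10 and TIMM8B for S100A2 (0.94 and 0.93), DPM3 and SLC35B1 for S100A4 (0.98 and 0.94) and TMED9 and ACTN1 for ANXA5 (0.94 and 0.92). Each pair is the highest of its search over 8 samples. S100A4, with 3 to 13 counts, reached an r as high as S100A13 did, so these values describe likeness and do not show shared control.

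The rest of both families was low or did not pass. Of 13 other S100 genes only S100A3 was tested. It had 3 and 2 counts in parental, 10, 8 and 8 in SDHBKO and 3, 17 and 4 in SDHBKOSDHAlow, with a log2 fold change of 1.69 ± 0.78 in SDHBKO against parental (edgeR adjusted p = 0.262). S100P had 1 to 7 counts, S100A5 0 to 3, S100A14 and S100G 0 to 1, and S100A1, S100A7, S100A7A, S100A8, S100A9, S100A12, S100B and S100Z 0 in every sample. Of 10 other annexins 3 were tested and edgeR called 0 of them in each comparison. At an unadjusted edgeR p under 0.05 there were 0, 2 and 0, beside 17.5%, 12.1% and 12.3% of all genes. DESeq2 called 0, 1 and 0 of 2, beside 12.4%, 2.85% and 1.99% of its genes. Its call was ANXA6 in SDHBKOSDHAlow against SDHBKO (DESeq2 adjusted p = 0.0814). ANXA6 averaged 490 ± 37.0 CPM in parental, 605 ± 64.5 in SDHBKO and 413 ± 44.3 in SDHBKOSDHAlow, with a log2 fold change of -0.55 ± 0.18 in SDHBKOSDHAlow against SDHBKO (edgeR adjusted p = 0.201). ANXA11 averaged 368 to 409 CPM over the groups.

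Of 9 genes tied to the annexin A2 and S100A10 complex and to plasminogen, 7 were tested. In SDHBKO against parental edgeR called 2, beside 5.54% of all genes, 1 higher and 1 lower, the lower being AHNAK. In SDHBKOSDHAlow it called 1 against SDHBKO, beside 1.51%, and 0 against parental. DESeq2 called 3 of 4, 1 of 6 and 0 of 4 in the same order, beside 12.4%, 2.85% and 1.99% of its genes. Calls other than AHNAK are not reported here. AHNAK, the large scaffold bound by S100A10 and annexin A2, measured 322 and 266 CPM in parental, 149, 185 and 131 CPM in SDHBKO and 157, 173 and 270 CPM in SDHBKOSDHAlow. It fell by 0.93 ± 0.25 on the log2 scale in SDHBKO against parental (edgeR adjusted p = 0.0525). The AHNAK call was lost without parental replicate 1 (-0.78, edgeR adjusted p = 0.502), parental replicate 2 (-1.06, edgeR adjusted p = 0.168), SDHBKO replicate 1 (-0.89, edgeR adjusted p = 0.178) or SDHBKO replicate 3 (-0.81, edgeR adjusted p = 0.178). In SDHBKOSDHAlow against SDHBKO its log2 fold change was 0.36 (edgeR adjusted p = 0.550).

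**Figure D4:**
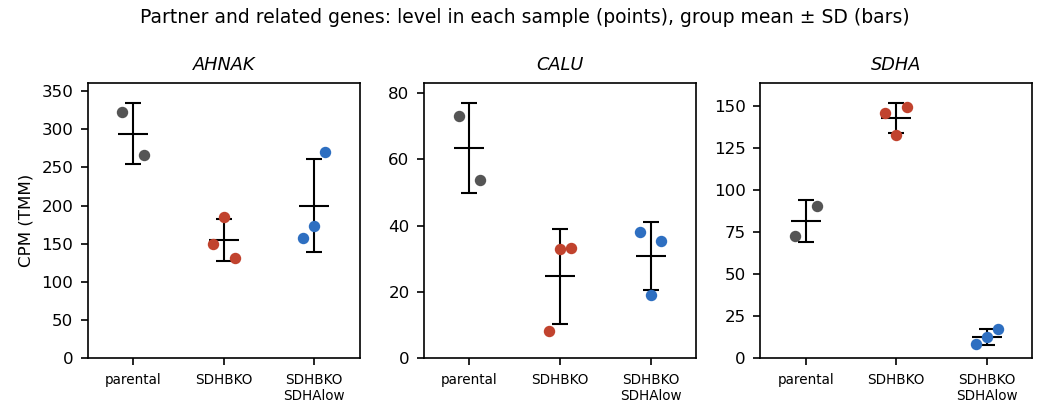
Level of AHNAK, CALU and SDHA (y axis, CPM after TMM scaling) in each sample, with bars for the group mean ± SD (n = 2 parental, 3 SDHBKO and 3 SDHBKOSDHAlow). The parental samples of AHNAK lie at 266 and 322 CPM above the SDHBKO samples at 131 to 185 CPM, and SDHA is lowest in the SDHBKOSDHAlow samples.

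Intracellular partners of S100 proteins, genes of annexin-related repair and signalling, and other EF-hand proteins were counted in the same way. Of 11 S100 targets 7 were tested, and edgeR and DESeq2 called 0 in each comparison, with 0, 1 and 1 at an unadjusted edgeR p under 0.05. MYH9, the nonmuscle myosin heavy chain that S100A4 binds, averaged 1033 ± 38.9 CPM in parental, 900 ± 45.1 in SDHBKO and 964 ± 58.3 in SDHBKOSDHAlow. Of 13 repair and signalling genes 6 were tested, with 0 called by edgeR or DESeq2 and 0 at an unadjusted edgeR p under 0.05 in each comparison. The calpain CAPN1 averaged 127, 163 and 139 CPM and the ESCRT subunit CHMP4B 94.6, 112 and 117 CPM in parental, SDHBKO and SDHBKOSDHAlow.

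Of 20 other EF-hand genes 16 were tested and 1 was called, in SDHBKO against parental, where 5.54% of all genes were called, so the count is near the background. It was CALU, which encodes calumenin of the secretory pathway, at 72.9 and 53.8 CPM in parental, 8.13, 32.9 and 33.1 CPM in SDHBKO and 38.2, 19.2 and 35.2 CPM in SDHBKOSDHAlow. Both parental samples were above the 6 others. CALU fell by 1.33 ± 0.42 on the log2 scale (edgeR adjusted p = 0.0923), and DESeq2 gave it no adjusted p. The CALU call was lost without parental replicate 1 (-1.09, edgeR adjusted p = 0.589), parental replicate 2 (-1.54, edgeR adjusted p = 0.206), SDHBKO replicate 1 (-0.94, edgeR adjusted p = 0.258) or SDHBKO replicate 3 (-1.57, edgeR adjusted p = 0.135). In the comparisons with SDHBKOSDHAlow edgeR and DESeq2 called 0 of the EF-hand genes. At an unadjusted edgeR p under 0.05 there were 4 of 16 in SDHBKO against parental, beside 17.5% of all genes. There was 1 in SDHBKOSDHAlow against SDHBKO and 1 against parental, beside 12.1% and 12.3%. EFHD1, a mitochondrial EF-hand protein gene chosen after its values were seen, did not pass the count filter. It had 8 and 4 counts in parental, 3, 11 and 3 in SDHBKO and 0 in each SDHBKOSDHAlow sample. Because it was chosen for these counts, a test on them would be no support, and none is given. In such bulk samples, fewer cells that express a gene and less of its RNA per cell cannot be told apart.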

How the data were processed

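Total RNA of 8 samples (2 parental, 3 SDHBKO, 3 SDHBKOSDHAlow, grouped by the modification in the labels) was sequenced from the 3′ end. The authors trimmed reads with Trimmomatic, removed ribosomal and mitochondrial reads with Sortmerna, and aligned and counted reads per gene on GRCh38 with STAR (2.5.2b), and deposited raw counts. Their second deposited file per sample holds a normalized signal, the counts divided by a size factor, in which the values of SDHBKO replicate 1 match the raw file of replicate 3 and the reverse. Tests used raw counts alone. Between 773042 and 1427141 reads per sample lay on genes. Rows that name no gene stayed out: multimapping (9.72% to 16.1% of reads), unmapped (0.638% to 1.51%), outside features (5.55% to 9.21%) and ambiguous (2.76% to 3.06%).

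Names came from GENCODE 44, which held 56948 of the 58051 identifiers. Genes with a mean count, after division by size factors, above 5 were fitted across all 8 samples with the quasi-likelihood test of edgeR 4.0.16 (R 4.3.3, TMM), and p-values were adjusted by Benjamini-Hochberg over all 7550 genes, with a threshold of 0.1 as in the study's methods. The biological coefficient of variation was 21.5% with 5 residual degrees of freedom. No replicate pair was within sampling noise (chi-squared per degree of freedom, 2.09 to 9.58). The members and gene lists were chosen with earlier results of these data known. Named are the 10 members, SDHA and SDHB and, from each list, every called gene or otherwise the pair with the highest mean CPM. Some listed genes that this rule names are not reported here. For each tested member, the pair of genes with the most similar level is also named. Alternatives were DESeq2 1.42.0, its size factors, other filters, a threshold of 0.05, fits of only the groups compared, replicate blocks, a GC offset and leaving out each sample. The fits were tested on simulated data.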

Additional observations from a re-analysis of the deposited data

Results flagged for a closer look

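The share of reads that STAR assigned to several places, which no comparison used, averaged 15.1% in the SDHBKO libraries (14.5% to 16.1%), against 10.5% in the parental libraries (10.2% and 10.9%) and 11.1% in the SDHBKOSDHAlow libraries (9.72% to 12.3%). It stood out because it lies outside the measurement tested and above the level in the control samples.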

How the results depend on the processing

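Of the 9 tested members, 1 passed in SDHBKO against parental. The count was 2 with DESeq2 (394 of 3168 genes called in all), with only the groups compared (777 of 7434) and with the GC offset (498 of 7550). It was 0 at a threshold of 0.05 (171 of 7550). With 1 SDHBKO or SDHBKOSDHAlow sample left out it ran from 0 to 3. It was 0 without SDHBKO replicate 1 (82 of 7646) or 3 (150 of 7570) and 3 without SDHBKOSDHAlow replicate 2 (846 of 7448). Leaving out a parental sample leaves a single one, so that count is not given. The number called over all genes also moved with the setting, so these counts are not particular to the members. In SDHBKOSDHAlow against SDHBKO the member count was 0, and 0 to 1 when 1 sample of these groups was left out. The 1 was S100A16 without SDHBKOSDHAlow replicate 2, where 375 of 7448 genes were called. In SDHBKOSDHAlow against parental it was 0 in each alternative. The cause was not tested. With the replicate number as a block the member count in SDHBKO against parental was 0 (199 of 7550 genes called). It was also 0 with the exchanged SDHBKO numbers (94 of 7550) and with the GC offset added (211 of 7550). With the block S100A13 had 0.95 (edgeR adjusted p = 0.110). In that comparison the CALU call was also lost with the block (-1.51, edgeR adjusted p = 0.125), with the exchanged numbers (-1.21, 0.209), with block and GC offset (-1.43, 0.136) and at 0.05, and the AHNAK call with the exchanged numbers (-1.04, 0.102) and at 0.05. The numbers are not known to pair the samples: the deviations of 7 same-numbered pairs correlated at -0.27 to 0.093.

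Directions reversed in members near 0. For S100A4 in SDHBKOSDHAlow against parental, the log2 fold change was -0.091 with the replicate block, -0.32 with the exchanged numbers and -0.19 with block and GC offset. ANXA2 in SDHBKO against parental was 0.0091 with block and GC offset. With 1 sample left out, values that changed sign ran from -0.69 to 0.19 (S100A4) and -0.14 to 0.020 (S100A10) in SDHBKO against parental, from -0.065 to 0.90 (S100A4) and -0.014 to 0.20 (ANXA2) in SDHBKOSDHAlow against SDHBKO, and from -0.23 to 0.64 (S100A4), -0.14 to 0.027 (S100A16) and -0.078 to 0.12 (ANXA2) in SDHBKOSDHAlow against parental. Of 472 values, 444 kept direction and call. Fold changes correlated with GC content over genes (Spearman 0.13 in SDHBKO against parental, -0.021 after the offset). Depth limits S100A2, S100A4 and ANXA1.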
